A study of Mus musculus with 12 samples.

Results

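The Hox genes were examined in RNA sequencing of macula densa cells, the salt-sensing plaque where the thick ascending limb meets its glomerulus, and of control cells from the same mouse kidney cortex. Members were the rows of the deposited count table whose symbol began with Hox, a cluster letter from a to d and a number. The rule took 35 of 23378 rows. Of these, 31 were protein-coding Hox genes (10 in cluster A, 8 in B, 7 in C and 6 in D), and 4 were antisense genes with names ending in os (Hoxa11os, Hoxb3os, Hoxb5os and Hoxd3os1), which are given apart. The annotation of the mouse assembly GRCm38 (GENCODE M21) lists 39 protein-coding Hox genes, and the other 8 (Hoxa13, Hoxb1, Hoxb13, Hoxc12, Hoxc13, Hoxd1, Hoxd12 and Hoxd13) were not analysed here. All animals were C57BL/6 mice of the line nNosCreERT2-mTmG, in which an inducible Cre recombinase expressed under nNOS turns a membrane reporter from red tdTomato to green GFP. Green cells were sorted as macula densa, and the most intensely red cells were sorted as controls meant to stand for epithelium of the distal tubule and collecting duct. The mice ate control diet, or were put on low salt diet (TD 90228) with the ACE inhibitor enalapril at 150 mg/L in the drinking water, called the low salt regimen here, and kidneys were taken after 14 days. This gave 4 groups: macula densa cells on control diet (2 libraries), macula densa cells on the low salt regimen (2), control cells on control diet (4) and control cells on the low salt regimen (4). Age, the number of mice behind a library and the timing of Cre induction are not given in the sources used here. Nothing says that replicates came from separate animals, so p-values measure only the spread between these samples.

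Hox genes encode homeodomain transcription factors that stand in 4 chromosomal clusters, and members at the same place in different clusters are paralogs with related DNA binding. Their order along each cluster follows the order of their expression along the body axis of the embryo, and low numbers mark anterior and high numbers posterior territories. Hox proteins bind DNA together with the homeodomain cofactors of the PBX and MEIS families. In the kidney, the group 11 paralogs are needed for the ureteric bud to form, and adult tubule epithelium keeps expressing many members according to its origin in the ureteric bud or the nephron progenitors.

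Single promoters of the members on which the results turn are shown, and the stretches shown differ in base composition and hold different short elements. The sequences are the 250 bases before the RefSeq start of each gene (GRCm38.p6), 5′ to 3′ on the strand of the gene, and capitals mark matches on either strand to the letters searched. Hoxd8 (chr2:74704365-74704614, plus strand), the member with the highest mean per length, has a single CCAAT match. Hoxd10 (chr2:74691641-74691890, plus strand) holds CCAAT on the opposite strand, and Hoxd11 (chr2:74682073-74682322, plus strand, the downstream of its 2 starts) holds a GC box (GGGCGG) and a PBX-HOX element (TGATTNAT), both on the opposite strand. Hoxa10 (chr6:52240855-52241104, minus strand, the upstream of its 2 starts), the one member called lower in macula densa cells, holds a GC box on its own strand.
Hoxd8: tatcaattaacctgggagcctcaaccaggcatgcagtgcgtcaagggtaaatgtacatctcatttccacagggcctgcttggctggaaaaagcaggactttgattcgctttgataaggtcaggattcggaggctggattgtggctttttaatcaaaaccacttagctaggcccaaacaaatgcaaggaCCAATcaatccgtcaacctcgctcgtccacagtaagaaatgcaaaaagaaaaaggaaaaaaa
Hoxd10: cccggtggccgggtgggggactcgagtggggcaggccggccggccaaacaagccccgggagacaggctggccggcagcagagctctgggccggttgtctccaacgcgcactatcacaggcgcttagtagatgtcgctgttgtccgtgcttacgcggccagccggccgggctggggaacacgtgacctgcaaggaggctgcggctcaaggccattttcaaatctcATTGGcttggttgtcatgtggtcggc
Hoxd11: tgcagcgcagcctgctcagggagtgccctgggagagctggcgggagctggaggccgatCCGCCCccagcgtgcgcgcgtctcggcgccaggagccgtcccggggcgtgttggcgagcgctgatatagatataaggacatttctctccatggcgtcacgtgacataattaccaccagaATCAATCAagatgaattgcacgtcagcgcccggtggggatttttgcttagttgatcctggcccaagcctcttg
Hoxa10: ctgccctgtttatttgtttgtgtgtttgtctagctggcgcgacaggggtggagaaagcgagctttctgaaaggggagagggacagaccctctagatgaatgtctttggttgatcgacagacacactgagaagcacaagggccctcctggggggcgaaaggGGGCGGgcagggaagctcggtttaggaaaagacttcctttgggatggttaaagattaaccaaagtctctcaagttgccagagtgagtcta
Among 19 promoters of 17 protein-coding members in the RefSeq table, 9 held CCAAT and 7 held GGGCGG, and of all 32851 promoters 33.8% and 32.7% did. TGATTNAT was in 2 (Hoxd11 and Hoxa2) and 2.82% of all promoters, the MEIS-PKNOX letters TGACAG in 2 and 15.9%, the CDX letters TTTATGG in 1 (Hoxd4) and 2.43%, and TATAAA in 3 and 12.4%. These matches are descriptions of letters and no binding was measured. The Hox promoters held a median of 12 CpG dinucleotides and all promoters a median of 6. Hoxd8 with 6 and the Hoxa10 start shown, with 7, were near the median of all promoters, and Hoxd10 and the Hoxd11 start shown had 20 each. The starts not shown went the other way, with 20 at Hoxa10 and 2 at Hoxd11, so the CpG count belongs to a start and not to the gene.

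Total counts ranged from 4259020 to 14856542 per library, and the ribosomal-sequence gene Gm42418 took 53.5% to 65.0% of them, so 3 counts corresponded to 0.231 to 0.734 CPM (counts relative to the TMM-scaled total of the library). A macula densa list of 6 genes, Nos1 and Slc12a1 among them, summed to 2151 to 3087 CPM in macula densa libraries and 44.6 to 434 CPM in control cells. In control cells most of that sum was Slc12a1 (41.8 to 430 CPM), also a thick ascending limb gene, and Nos1 was 0.109 to 0.734 CPM. The collecting duct list (10 genes) summed to 25.2 to 52.0 CPM in macula densa and 142 to 959 CPM in control cells, and the list of distal convoluted and connecting tubule (10 genes) to 693 to 1987 and 213 to 1709 CPM. Control cells also held podocyte genes (10 genes, 52.5 to 1445 CPM, against 22.0 to 163 CPM in macula densa cells) and endothelial genes (10 genes, 53.7 to 1705 CPM, against 14.4 to 188 CPM), so they are called by their sort and not by a tubule segment. No gene of these lists was at 0 in all libraries of a population. Control-cell library 4 on control diet stood apart, with 52.5 CPM of podocyte and 53.7 CPM of endothelial genes, and the highest collecting duct (959 CPM) and thick ascending limb (1691 CPM) sums among control cells. Results on Hox members that rest on it are given with and without it.

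Both cell populations expressed Hox genes of all 4 clusters at low levels. Together the 31 protein-coding members summed to 313 to 428 CPM in macula densa libraries and 162 to 259 CPM in control cells, with no overlap. The filter on low counts passed 27 of the 31 (7 of 10 in A, all 8 in B, 6 of 7 in C and all 6 in D). Hoxa11, the paralog that acts with Hoxd11 in kidney formation, had 6 counts in macula densa library 2 on the low salt regimen, 0 in the other macula densa libraries and 0 to 5 in control cells. It did not pass, and members that did not pass are not compared between groups.

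Per length, Hoxd8 had the highest mean of the members in both populations. It held 34.1 CPM per kb of exon in macula densa cells (mean of 4 libraries) and 12.4 CPM per kb in control cells (mean of 8). In macula densa cells Hoxb7 (14.5 CPM per kb), Hoxb6 (13.8), Hoxd10 (13.1) and Hoxd9 (8.47) came next. In control cells the next were Hoxb6 (9.35 CPM per kb), Hoxb7 (8.41), Hoxa7 (5.05) and Hoxb4 (5.02). By these means, the leading member of each cluster stood in groups 6 to 8 in both populations: Hoxa7 in A, Hoxb7 or Hoxb6 in B, Hoxc6 in C and Hoxd8 in D. In macula densa cells Hoxc6 and Hoxc10 were close, at 5.51 and 5.28 CPM per kb. On the low salt regimen alone Hoxc10 was above Hoxc6 there (5.80 against 4.89 CPM per kb). Hoxa7 was at place 12 of 31 in macula densa cells and place 4 in control cells, Hoxa10 at places 27 and 16, Hoxd9 at places 5 and 11, and Hoxd11 at places 23 and 29. Over single libraries the values per kb of Hoxb7, Hoxb6 and Hoxd10 overlapped in macula densa cells, as did those of Hoxa7, Hoxb4 and Hoxd10 in control cells, while Hoxd8 and Hoxb7 did not overlap in macula densa cells. Hoxd8 did not lead in every control-cell library. In library 1 on control diet it had 122 counts on 2744 exon bases, and Hoxb6 had 135 counts on 1964. In library 2 on control diet Hoxd8 had 225 counts, and Hoxb7 had more per base, with 143 counts on 1544.

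**Figure D1:**
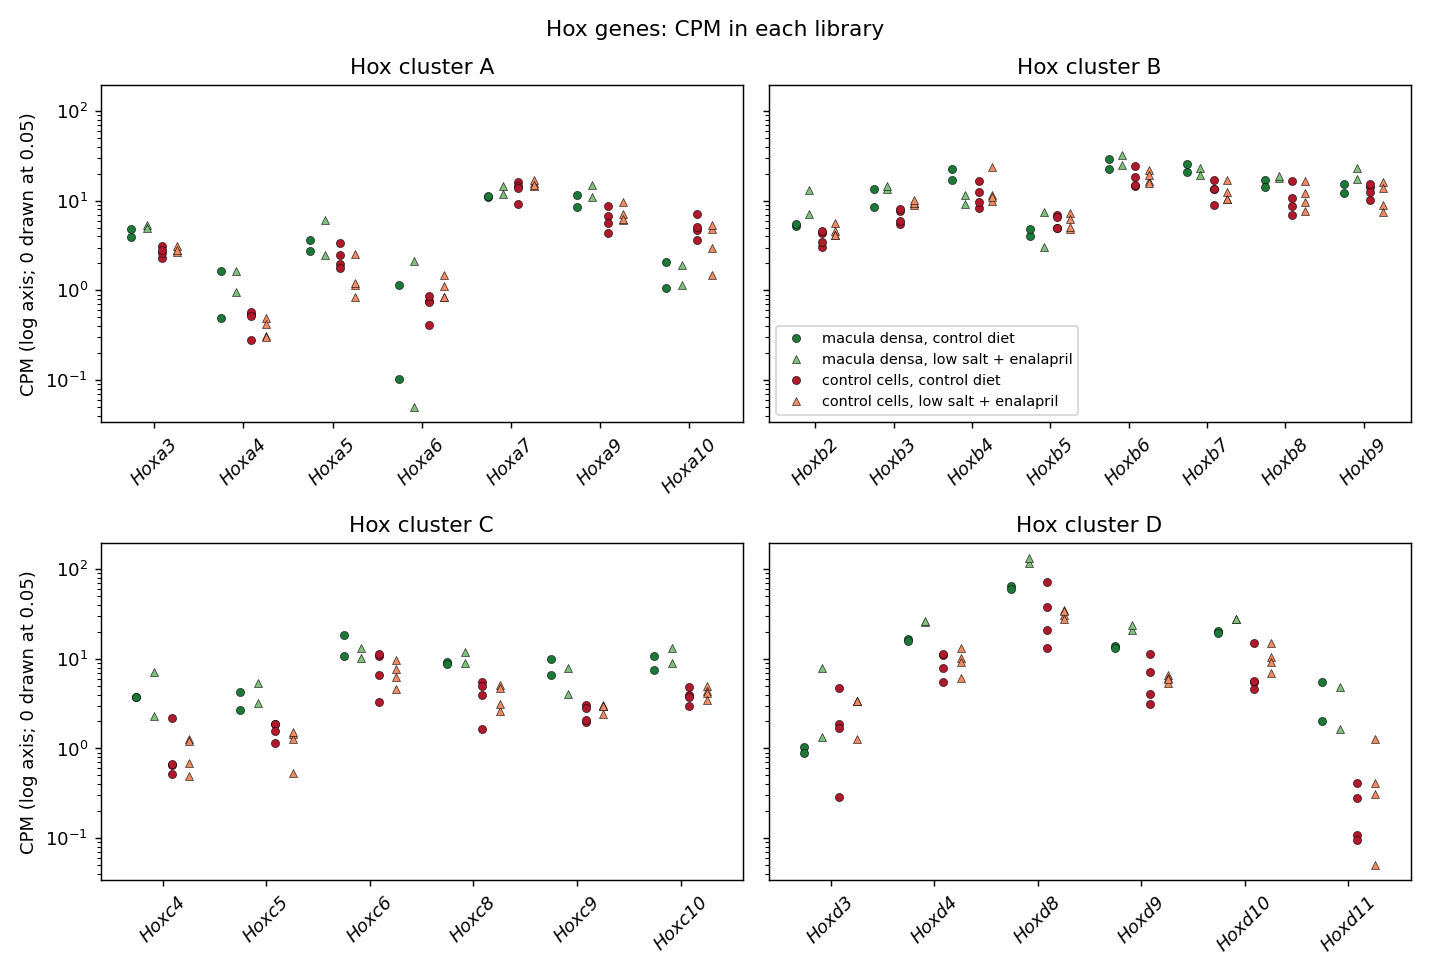
CPM of the 27 tested protein-coding Hox genes in each of the 12 libraries, one panel per cluster, on a log axis (0 drawn at 0.05). Green symbols are macula densa and red symbols control-cell libraries, circles control diet and triangles the low salt regimen. In clusters C and D the green symbols lie above the red ones for most genes. For Hoxa10 they lie at the bottom, with control-cell library 3 on the low salt regimen (1.47 CPM) among them.

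Macula densa cells were compared with control cells over both diets to ask which transcripts set them apart. In the average of both diets, 17 of the 27 tested members were higher and 1, Hoxa10, was lower (edgeR quasi-likelihood test, Benjamini-Hochberg adjusted p under 0.05 over all 14180 genes tested). Over all genes, 21.3% were called, 7.48% higher and 13.9% lower. At an unadjusted p under 0.05 there were 21 members and 34.4% of all genes. The median log2 difference of the members was 0.79, and that of all genes -0.06; 22 of 27 members and 46.0% of all genes were above 0. By cluster, 5 of 6 tested C members, 5 of 6 D members, 4 of 8 B members and 3 of 7 A members were called higher, with median log2 differences of 1.35, 1.38, 0.57 and 0.75. In 11 members (Hoxa3, Hoxb7, Hoxc4, Hoxc5, Hoxc8, Hoxc9, Hoxc10, Hoxd4, Hoxd9, Hoxd10 and Hoxd11) each of the 4 macula densa libraries was above each of the 8 control-cell libraries, which held for 4.31% of all genes. No member had all macula densa libraries below all control cells, and 5.28% of all genes did. Of the 18 called members, 9 of the 10 in clusters C and D stayed past the threshold when any 1 of the 12 libraries was left out, and none of the 8 in clusters A and B did. The share of all called genes that stayed was not counted, so these counts have no background to be set against. Without control-cell library 4 on control diet, 18 members were higher and 1 was lower, where 28.2% of all genes were called. Fewer cells of a type and less RNA per cell cannot be told apart in such bulk samples.

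**Figure D2:**
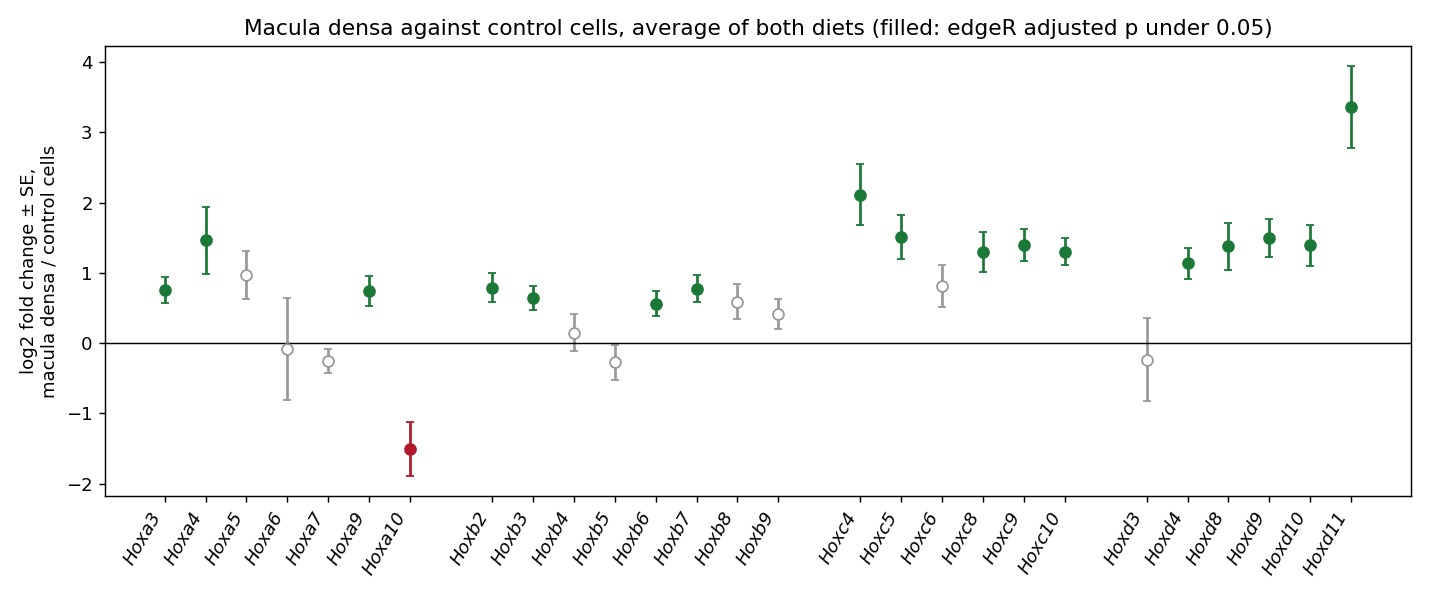
Log2 fold change (± SE) of each tested protein-coding Hox gene, macula densa cells over control cells, average of both diets, from cluster A at left to D at right. Filled symbols passed an edgeR adjusted p of 0.05; the 10 filled C and D members lie between 1.14 and 3.35, and Hoxa10 is the one filled symbol under 0, at -1.5.

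Cluster D lies on chromosome 2, where the annotation places Hoxd8 at chr2:74704615-74707933 on the plus strand. Hoxd8, expressed in the trunk of the embryo, held 64.7 and 60.3 CPM in macula densa cells on control diet and 117 and 132 CPM on the low salt regimen, against 13.3, 21.1, 37.6 and 72.7 CPM and 34.8, 31.1, 34.2 and 27.6 CPM in control cells of those diets. All macula densa libraries were above 7 of the 8 control-cell libraries, and control-cell library 4 on control diet, at 72.7 CPM, was above the macula densa libraries of its diet. The log2 difference was 1.38 ± 0.33 (edgeR adjusted p = 0.0121). It was 1.67 ± 0.22 without that library (edgeR adjusted p = 0.000217), and without macula densa library 2 on the low salt regimen the edgeR adjusted p was 0.0552.

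Hoxd9 (chr2:74697727-74700208), a paralog of the limb and spinal group 9 genes, held 14.1 and 13.3 CPM in the macula densa libraries of control diet and 20.9 and 24.1 CPM in those of the low salt regimen. Control cells held 3.17, 4.04, 7.05 and 11.3 CPM and 6.61, 5.39, 6.09 and 5.90 CPM, in the same order of diets. Every macula densa value was above every control-cell value, and the log2 difference was 1.5 ± 0.27 (edgeR adjusted p = 0.00283). Hoxd10 (chr2:74691924-74695105), which patterns the lumbar spinal cord and the limb, held 20.6 and 19.3 CPM (control diet) and 27.8 and 27.6 CPM (low salt regimen) in macula densa cells, and 5.47, 4.6, 5.71 and 15.2 CPM and 10.5, 9.30, 15.1 and 6.92 CPM in control cells. Here too the groups did not overlap, with the nearest control-cell values, at 15.2 and 15.1 CPM, in library 4 on control diet and library 3 on the low salt regimen. The log2 difference of Hoxd10 was 1.39 ± 0.30 (edgeR adjusted p = 0.00704). Hoxd4, which sets the identity of neck vertebrae, held 16.5 and 15.7 CPM in macula densa cells and 5.58, 7.89, 11 and 11.3 CPM in control cells on control diet, and 25.9 and 26.7 CPM and 13.2, 10.3, 6.09 and 9.15 CPM on the low salt regimen. The populations did not overlap, and Hoxd4 was higher by 1.14 ± 0.22 on the log2 scale (edgeR adjusted p = 0.00413).

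Hoxd11 (chr2:74679557-74687016), which acts with Hoxa11 in the formation of kidney and forearm, had the largest fitted difference among the members, 3.35 ± 0.58 on the log2 scale (edgeR adjusted p = 0.00236). Its counts were 54 and 25 in macula densa cells on control diet and 25 and 10 on the low salt regimen. They were 1, 3, 1 and 4 and 4, 0, 6 and 4 in the control cells of the same diets. Most control-cell counts lay at or near the 3 counts taken as the floor, so the size of this difference rests on 23 counts in 8 libraries. Hoxd3, the last D member, held 1.03 and 0.896 CPM in macula densa cells on control diet and 1.34 and 7.87 CPM on the low salt regimen, against 1.86, 1.69, 0.286 and 4.75 CPM and 3.38, 3.43, 1.26 and 3.36 CPM in control cells of those diets. Its libraries overlapped widely and its log2 difference was -0.23 ± 0.59 (edgeR adjusted p = 0.822).

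Cluster C lies on chromosome 15, and 5 of its 6 tested members were higher in macula densa cells. Hoxc10 (chr15:102966796-102971893), a group 10 paralog that patterns lumbar vertebrae and motor neurons, had the smallest adjusted p of all members. It held 7.49 and 10.7 CPM in the macula densa libraries of control diet and 9 and 13.1 CPM in those of the low salt regimen. Control cells held 2.95, 3.95, 3.71 and 4.86 CPM and 5, 4.41, 4.2 and 3.46 CPM, in the same order of diets. The populations did not overlap, and the log2 difference was 1.30 ± 0.20 (95% interval 0.92 to 1.69, edgeR adjusted p = 0.000965). Hoxc9 (chr15:102976439-102985099), which keeps thoracic motor neurons distinct from limb ones, held 6.67 and 10 CPM (control diet) and 7.85 and 4.10 CPM (low salt regimen) in macula densa cells, and 3.06, 1.97, 2.86 and 2.07 CPM and 3.07, 2.45, 2.94 and 2.95 CPM in control cells. Its lowest macula densa value, 4.10 CPM, was still above its highest control-cell value, 3.07 CPM, and the log2 difference was 1.39 ± 0.23 (edgeR adjusted p = 0.00173).

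Hoxc8, a gene of the thoracic skeleton, held 9.13 and 8.72 CPM in macula densa cells and 5.47, 4.98, 3.90 and 1.65 CPM in control cells on control diet, and 11.9 and 9.02 CPM and 2.61, 5.14, 3.15 and 4.68 CPM on the low salt regimen. No control-cell library reached the macula densa level, and library 4 on control diet was lowest of all at 1.65 CPM, unlike for Hoxd8. The log2 difference of Hoxc8 was 1.30 ± 0.28 (edgeR adjusted p = 0.00771). The anterior members Hoxc4 and Hoxc5 were low in both populations. Hoxc4 held 3.80 and 3.75 CPM in macula densa cells on control diet and 7.09 and 2.30 CPM on the low salt regimen, against 2.19, 0.658, 0.667 and 0.517 CPM and 0.692, 0.490, 1.26 and 1.22 CPM in control cells of those diets, while Hoxc5 held 2.67 and 4.32 CPM in the macula densa libraries of control diet and 3.26 and 5.41 CPM in those of the low salt regimen. Control cells held 1.86, 1.88, 1.14 and 1.55 CPM and 0.538, 1.47, 1.26 and 1.53 CPM, in the same order of diets. In both genes the populations did not overlap, though for Hoxc4 the nearest values were 2.30 and 2.19 CPM. Their log2 differences were 2.11 ± 0.43 for Hoxc4 (edgeR adjusted p = 0.00566) and 1.51 ± 0.32 for Hoxc5 (edgeR adjusted p = 0.00656). Hoxc6 is the C member that was not called. It held 10.9 and 18.7 CPM (control diet) and 13.2 and 10.3 CPM (low salt regimen) in macula densa cells, and 10.8, 11.2, 6.57 and 3.31 CPM and 6.23, 9.79, 4.62 and 7.73 CPM in control cells, with control-cell libraries 1 and 2 on control diet inside the macula densa range, and its log2 difference was 0.81 ± 0.31 (edgeR adjusted p = 0.0776).

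Cluster B, on chromosome 11, held 4 called members with log2 differences of 0.56 to 0.79, below the 1.14 to 3.35 of called C and D members. Hoxb7, whose promoter is widely used to drive transgenes in the ureteric bud and collecting duct, held 25.6 and 21.1 CPM in macula densa cells and 8.97, 13.4, 13.5 and 17.3 CPM in control cells on control diet, and 23.2 and 19.4 CPM and 17.1, 10.5, 12.6 and 10.5 CPM on the low salt regimen. The populations did not overlap, and the log2 difference was 0.77 ± 0.19 (edgeR adjusted p = 0.015). Hoxb6, its neighbour in the cluster, held 28.9 and 22.6 CPM in macula densa cells on control diet and 32.0 and 24.9 CPM on the low salt regimen, against 14.8, 15.1, 18.6 and 24.4 CPM and 22.3, 16.4, 19.5 and 15.8 CPM in control cells of those diets. Hoxb2, a hindbrain gene, held 5.23 and 5.46 CPM in the macula densa libraries of control diet and 13.2 and 7.05 CPM in those of the low salt regimen. Control cells held 3.06, 4.32, 3.43 and 4.55 CPM and 5.69, 4.65, 4.2 and 4.17 CPM, in the same order of diets. Hoxb3, also a hindbrain gene, held 8.51 and 13.7 CPM (control diet) and 13.6 and 14.8 CPM (low salt regimen) in macula densa cells, and 5.47, 6.01, 7.62 and 8.06 CPM and 9.53, 9.06, 9.45 and 10.2 CPM in control cells. In all 3 at least 1 control-cell library reached the macula densa values, for Hoxb6 library 4 on control diet. Their log2 differences were 0.56 ± 0.18 for Hoxb6, 0.79 ± 0.21 for Hoxb2 and 0.64 ± 0.17 for Hoxb3, with edgeR adjusted p of 0.0424, 0.019 and 0.0198. Hoxb6 lost its call in 10 of the 12 fits without 1 library (edgeR adjusted p up to 0.22, without macula densa library 1 on control diet). Hoxb2, Hoxb3 and Hoxb7 each lost it when a given 1 of 2 or 3 macula densa libraries was left out (edgeR adjusted p up to 0.119, 0.159 and 0.0884).

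The other 4 B members were not called. Hoxb4, known for its part in blood stem cells, held 16.8 and 22.8 CPM in macula densa cells and 8.31, 16.5, 12.4 and 9.71 CPM in control cells on control diet, and 11.5 and 9.19 CPM and 23.5, 10, 11.6 and 11.1 CPM on the low salt regimen. Its high values were macula densa library 2 on control diet and control-cell library 1 on the low salt regimen, and the log2 difference was 0.15 ± 0.26 (95% interval -0.37 to 0.66, edgeR adjusted p = 0.737). Hoxb5, which acts in the enteric nervous system, held 4 and 4.81 CPM in macula densa cells on control diet and 3.07 and 7.55 CPM on the low salt regimen, against 7, 4.98, 6.57 and 4.96 CPM and 4.84, 7.34, 5.04 and 6.31 CPM in control cells of those diets. Hoxb8, a gene of the spinal cord, held 17.1 and 14.1 CPM in the macula densa libraries of control diet and 17.8 and 18.7 CPM in those of the low salt regimen. Control cells held 6.89, 8.64, 10.9 and 16.7 CPM and 16.6, 7.59, 12.2 and 9.77 CPM, in the same order of diets. Hoxb9, a gene of the thoracic skeleton, held 12.1 and 15.5 CPM (control diet) and 23.0 and 17.4 CPM (low salt regimen) in macula densa cells, and 14.2, 10.2, 12.7 and 15.5 CPM and 16.4, 9.06, 7.56 and 13.8 CPM in control cells. The populations overlapped in all of these. Hoxb5 had a log2 difference of -0.27 ± 0.25 (95% interval -0.75 to 0.21), Hoxb8 one of 0.59 ± 0.25 (95% interval 0.10 to 1.08) and Hoxb9 one of 0.42 ± 0.21 (95% interval -0.004 to 0.84). The edgeR adjusted p values of these members were 0.476, 0.111 and 0.193. Hoxb8 was called when control-cell library 4 on control diet was left out (log2 difference 0.73 ± 0.21, edgeR adjusted p = 0.0206).

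Cluster A, on chromosome 6, held the one member that was lower. Hoxa10 (chr6:52231197-52240854, minus strand), a group 10 paralog required in the uterus and the lumbar spine, held 2.05 and 1.06 CPM in macula densa cells and 7.11, 4.70, 5.14 and 3.62 CPM in control cells on control diet, and 1.92 and 1.15 CPM and 3, 4.90, 1.47 and 5.39 CPM on the low salt regimen. Macula densa values were between 1.06 and 2.05 CPM, and 7 of the 8 control-cell values were above them; library 3 of the control cells on the low salt regimen, at 1.47 CPM, was among them. The log2 difference was -1.5 ± 0.38 (edgeR adjusted p = 0.0153), and it rested on 50 counts in the macula densa libraries and 323 in the control cells. The edgeR adjusted p was 0.0716 without macula densa library 2 on control diet and 0.069 without macula densa library 2 on the low salt regimen. The other group 10 paralogs, Hoxc10 and Hoxd10, were higher by 1.30 ± 0.20 and 1.39 ± 0.30 on the log2 scale. 

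Hoxa3, which forms the thymus and parathyroid, held 3.90 and 4.81 CPM in macula densa cells on control diet and 5.36 and 4.92 CPM on the low salt regimen, against 2.30, 2.63, 3.14 and 2.79 CPM and 2.84, 2.69, 3.15 and 2.85 CPM in control cells of those diets. The populations did not overlap, and the log2 difference was 0.76 ± 0.19 (edgeR adjusted p = 0.0147). Without macula densa library 2 on control diet, its edgeR adjusted p was 0.0878. Hoxa9, known from blood progenitors, held 8.51 and 11.6 CPM in the macula densa libraries of control diet and 10.9 and 15.1 CPM in those of the low salt regimen. Control cells held 6.78, 4.32, 5.71 and 8.78 CPM and 7.15, 6.12, 9.66 and 6.20 CPM, in the same order of diets. Its populations overlapped, and the log2 difference was 0.75 ± 0.21 (edgeR adjusted p = 0.0274, and up to 0.148 without 1 library). Hoxa4 had 5 to 16 counts in macula densa libraries and 2 to 6 in control cells. Its log2 difference of 1.46 ± 0.48 passed narrowly (edgeR adjusted p = 0.0461) and was lost in 11 of the 12 fits without 1 library. Hoxa7, the most abundant A member, held 11.1 and 11.2 CPM (control diet) and 14.6 and 12 CPM (low salt regimen) in macula densa cells, and 16.1, 14.8, 13.8 and 9.19 CPM and 15.8, 14.4, 17.2 and 14.9 CPM in control cells, which gave -0.25 ± 0.17 (95% interval -0.58 to 0.07, edgeR adjusted p = 0.311). Hoxa5 of the lung and Hoxa6 were not called, with log2 differences of 0.98 ± 0.34 and -0.08 ± 0.73 (edgeR adjusted p = 0.0612 and 0.956).

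**Figure D3:**
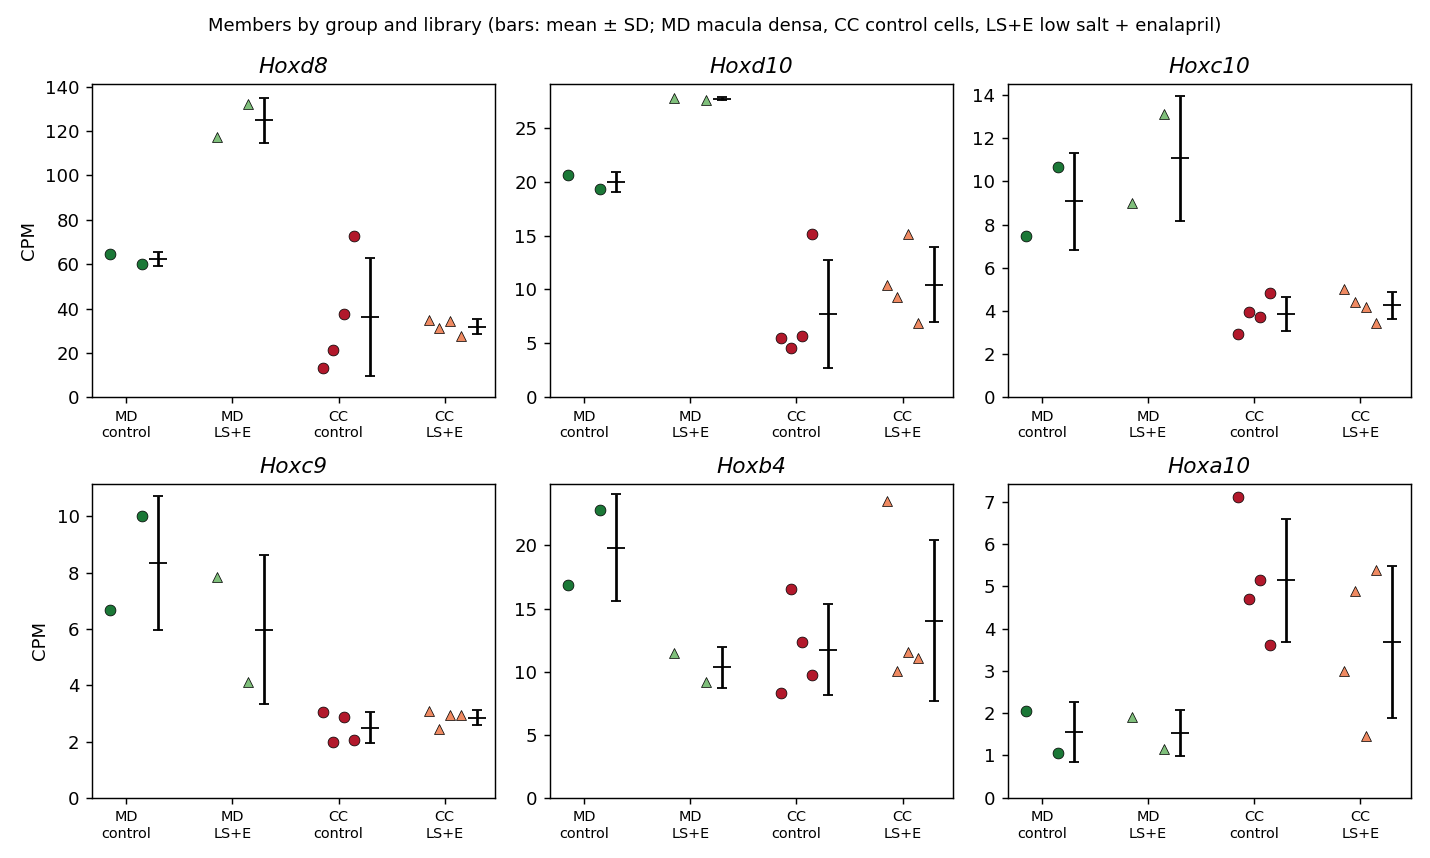
CPM by group and library for 6 members; points are libraries, bars mean ± SD (n = 2 for each macula densa and 4 for each control-cell group), and axes start at 0. Hoxc10 and Hoxc9 separate the populations on both diets, and Hoxd8 has one control-cell library on control diet at the macula densa level. Hoxa10 is the one member with macula densa cells at the bottom, where control-cell library 3 on the low salt regimen (1.47 CPM) also lies.

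Several members share exons with another row, so their counts are uncertain, and the deposited counting is not stated to use strand. On the same strand, Hoxc5 shares 166 bases with Hoxc10, Hoxd3 shares 388 with Hoxd4 (both also with the predicted gene Gm28230), and Hoxd10 and Hoxd11 share 104 and 455 bases with Gm28309. Summed rows gave log2 differences of 1.35 ± 0.17 for Hoxc5 and Hoxc10, 0.98 ± 0.25 for Hoxd3, Hoxd4 and Gm28230, and 1.57 ± 0.30 for Hoxd10, Hoxd11 and Gm28309. The direction of Hoxc5, Hoxc10, Hoxd4, Hoxd10 and Hoxd11 was that of their sums, whereas the small negative value of Hoxd3 was not. Each sum contains the member itself, so a shared direction cannot tell whether reads of shared exons were placed correctly. Gm28230 alone was higher by 1 ± 0.33 (edgeR adjusted p = 0.0488).

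Of the antisense genes, Hoxb5os and Hoxd3os1 passed the filter. Hoxb5os (chr11:96291024-96306910, minus strand), which overlaps Hoxb5 by 100 exon bases, held 2.36 and 3.26 CPM in macula densa cells and 0.109, 0.470, 0.762 and 1.55 CPM in control cells on control diet, and 5.94 and 1.97 CPM and 0.769, 0.490, 1.68 and 0.407 CPM on the low salt regimen. Its log2 difference was 2.10 ± 0.53 (edgeR adjusted p = 0.015), while its partner Hoxb5 was at -0.27 ± 0.25. The sum of both rows gave 0.30 ± 0.16, and reads of such partners cannot be told apart without strand. The call was lost without macula densa library 2 on control diet (edgeR adjusted p = 0.0667) or library 1 on the low salt regimen (0.0931). Hoxd3os1, which overlaps Hoxd3 and Hoxd4, ranged from 0.656 to 4.02 CPM in the macula densa libraries and 0.875 to 3.31 (median 1.14) in the control-cell libraries, at 0.47 ± 0.50 on the log2 scale (edgeR adjusted p = 0.552). Hoxb3os had 18 counts in all macula densa and 37 in all control-cell libraries, and Hoxa11os had 2 and 30. The last value came mostly from control-cell libraries on control diet, with 10, 4, 7 and 2 counts.

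Members were also summed over each cluster. Cluster C members summed to 40.7 and 56.2 CPM in macula densa cells on control diet and 54.0 and 44.3 CPM on the low salt regimen. In control cells they summed to 26.5, 24.6, 19.1 and 14.1 CPM on control diet and 18.1, 23.7, 17.4 and 21.8 CPM on the low salt regimen, so the populations did not overlap. Cluster D members summed to 122 and 112 CPM and 198 and 220.0 CPM in macula densa cells on the 2 diets, against 29.5, 39.6, 61.8 and 116 CPM and 68.8, 59.5, 64.1 and 53.3 CPM in control cells. One control-cell library, library 4 on control diet, was inside the macula densa range, and the other 7 were below it. Cluster B sums were 118 to 137 CPM in macula densa and 68.7 to 116 CPM in control cells, and cluster A sums 31.2 to 42.7 and 27.9 to 37.6 CPM. The A sums overlapped widely.

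Ratios between clusters within a library do not depend on how libraries were scaled. The ratio of cluster C to cluster A was 1.04 to 1.68 in macula densa cells and 0.500 to 0.801 in control cells, and the ranges did not overlap. The ratio of D to A was 3.34 to 5.16 and 0.785 to 4.14, with control-cell library 4 on control diet inside the macula densa range. As a share of all Hox counts, cluster B took 27.9 to 37.8% in macula densa cells and 39.1 to 49.4% in control cells. Hoxd8 alone took 20.7 and 18.8% of Hox counts in macula densa cells on control diet, 27.4 and 31.0% on the low salt regimen and 8.22 to 28.1% in control cells.

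Control-cell libraries differed in the sums of several marker lists, and the Hox sums are set beside the marker sums here. On control diet, the cluster D sums of libraries 1 to 4 were 29.5, 39.6, 61.8 and 116 CPM and the C sums 26.5, 24.6, 19.1 and 14.1 CPM. The endothelial sums were 1705, 1379, 940.1 and 53.7 CPM and the podocyte sums 1445, 1139.6, 734 and 52.5 CPM. Both were thus lowest in library 4, where D was highest and C lowest. In the same libraries the collecting duct sums were 147, 340.4, 493 and 959 CPM, and the thick ascending limb sums 226, 315, 1069 and 1691 CPM. The distal tubule sums were 213, 302, 812 and 1709 CPM and the macula densa sums 44.6, 70.2, 232 and 342 CPM. Of the macula densa sums, Slc12a1 gave 41.8, 59.4, 223 and 309 CPM and Nos1 0.109, 0.470, 0.381 and 0.413 CPM. Cluster D and these 4 epithelial lists thus stood in one order over the 4 libraries, and cluster C, endothelium and podocyte in the opposite one. The macula densa and thick ascending limb lists share Slc12a1, and the thick ascending limb and distal tubule lists share another gene. The orders of these lists are therefore not separate observations. The intercalated cell sums (27.4, 115, 160 and 482 CPM) also stood in the order of D. Other lists stood in neither order, namely proximal tubule (72.6, 99.2, 167 and 117 CPM), smooth muscle and renin cells, fibroblasts and mesangium, leukocytes and erythroid cells. On the low salt regimen the D sums were 68.8, 59.5, 64.1 and 53.3 CPM, beside endothelial sums of 388, 964, 277 and 1346 CPM and thick ascending limb sums of 912, 542, 1175 and 382 CPM. There the orders were alike only in part. D and the thick ascending limb sums were both lowest in library 4 and next in library 2, but D was highest in library 1 and thick ascending limb in library 3. The C sums were 18.1, 23.7, 17.4 and 21.8 CPM, and C and endothelium were both lowest in library 3 and next in library 1. Collecting duct sums (427, 213, 142 and 317 CPM) and distal tubule sums (318, 379, 499 and 349 CPM) stood in other orders. The part of the cell mixture in the Hox differences was not tested. In control-cell library 4 on control diet, the endothelial and podocyte sums lay inside the macula densa range, with a C sum of 14.1 CPM and a D sum of 116 CPM.

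**Figure D4:**
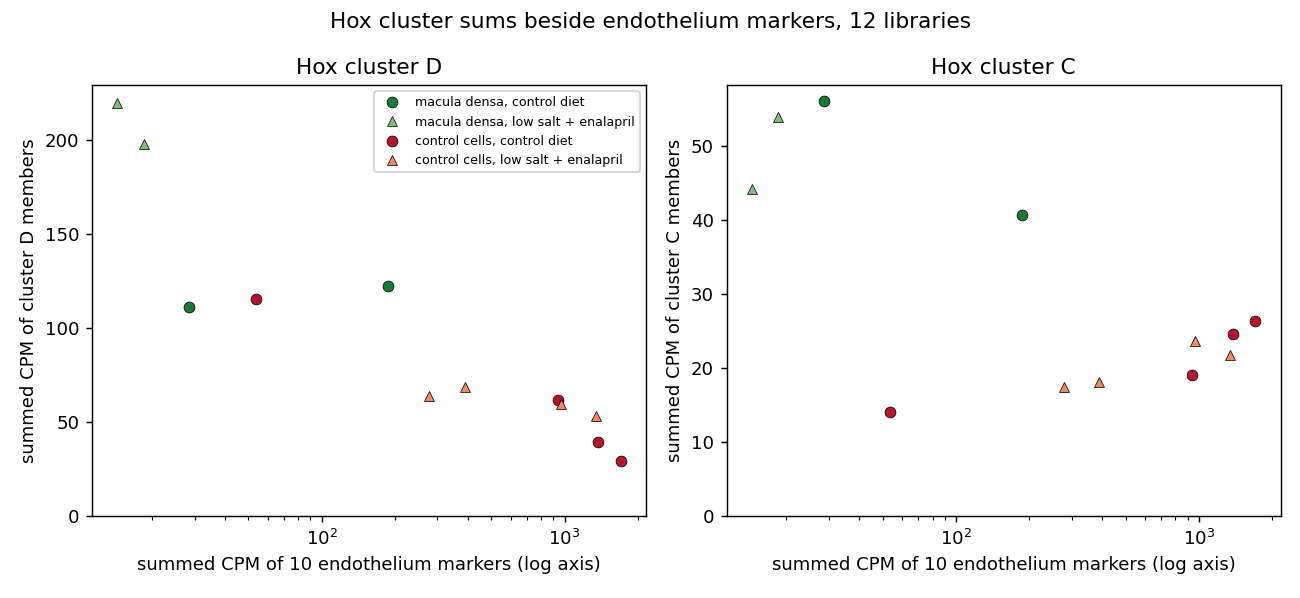
Summed CPM of cluster D (left) and cluster C (right) against the summed CPM of 10 endothelium markers (log axis) in the 12 libraries, coloured by group. Control-cell library 4 on control diet, at 53.7 CPM of endothelium markers, lies with the macula densa libraries of its diet for cluster D and under all other libraries for cluster C.

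Within control diet alone, 3 of 27 members were higher in macula densa cells (Hoxc9, Hoxc10 and Hoxd11) and 0 were lower, where 2.69% and 3.92% of all genes were (6.61% in either direction). At an unadjusted p under 0.05 there were 13 members and 24.2% of all genes. The log2 differences were 1.74 ± 0.31 for Hoxc9, 1.23 ± 0.27 for Hoxc10 and 3.98 ± 0.82 for Hoxd11 (edgeR adjusted p = 0.0083, 0.0217 and 0.016). The macula densa libraries were above all 4 control-cell libraries in 14 members and below them in 2, Hoxa10 and Hoxb5, and 15.2% and 16.7% of all genes did so. Hoxd8 was at 0.79 ± 0.47 (edgeR adjusted p = 0.336) and Hoxa10 at -1.73 ± 0.52 (edgeR adjusted p = 0.0677). Without control-cell library 4, 8 members were higher and 1 was lower, where 17.7% of all genes were called in either direction. Hoxd8, Hoxd9 and Hoxd10 were then at 1.38 ± 0.33, 1.51 ± 0.29 and 1.92 ± 0.28 (edgeR adjusted p = 0.0134, 0.0049 and 0.00128), and Hoxa10 was at -1.87 ± 0.52 (edgeR adjusted p = 0.0285). The count was 1 without macula densa library 1, macula densa library 2 or control-cell library 3, where 1.61%, 0.755% and 2.94% of all genes were called.

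In mice on the low salt regimen, 7 members were higher (Hoxb2, Hoxc4, Hoxc5, Hoxc10, Hoxd4, Hoxd8 and Hoxd9) and 0 were lower, where 3.15% and 4.13% of all genes were (7.27% in either direction). At an unadjusted p under 0.05 there were 20 members and 25.3% of all genes. Hoxd8 was higher by 1.97 ± 0.47 on the log2 scale (3.91-fold, edgeR adjusted p = 0.0281) and Hoxd9 by 1.90 ± 0.38 (3.73-fold, edgeR adjusted p = 0.0134). Hoxd4 was higher by 1.43 ± 0.31 and Hoxc10 by 1.37 ± 0.28 (edgeR adjusted p = 0.0193 and 0.0147), and Hoxc5, Hoxc4 and Hoxb2 had edgeR adjusted p of 0.0316, 0.0446 and 0.0433. In 20 members both macula densa libraries were above all 4 control-cell libraries, and in 0 they were below, where 15.3% and 19.5% of all genes were. The count of 7 called members was 0 without macula densa library 2 and 2 without macula densa library 1, where 1.22% and 3.69% of all genes were called. It was 1 without control-cell library 4 (3.68% of all genes), and 3 without control-cell library 1 or 2 (5.15% and 4.29%).

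The low salt regimen was compared with control diet within each population to ask whether the regimen changed expression. In the macula densa 0 of 27 members were called, as were 0.0% of all genes (edgeR). On simulated data this comparison recovered 38.5% of genes changed 4-fold, so a missing call does not show a missing change. At an unadjusted p under 0.05 there were 2 members, Hoxb2 and Hoxd3, and 11.2% of all genes, and the DESeq2 Wald test called 0 members and 0.656% of all genes. Hoxb2 was at 0.92 ± 0.34 (edgeR adjusted p = 0.363) and Hoxd3 at 2.26 ± 1 (0.431), the latter from 48 counts in one library and 7 in the other. Both low salt libraries were above both control-diet libraries in 10 members (Hoxa3, Hoxa7, Hoxb2, Hoxb8, Hoxb9, Hoxd3, Hoxd4, Hoxd8, Hoxd9 and Hoxd10) and below in 1, Hoxb4, and 18.8% and 21.8% of all genes did so.

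Cluster D held 5 of those 10. Hoxd8 was 62.5 ± 3.15 CPM (SD, n = 2) on control diet and 125 ± 10.3 CPM (SD, n = 2) on the low salt regimen, a log2 difference of 1 ± 0.56 (95% interval -0.10 to 2.10, edgeR adjusted p = 0.54). Hoxd4 was 16.1 ± 0.562 CPM (SD, n = 2) and 26.3 ± 0.620 CPM (SD, n = 2), and Hoxd9 was 13.7 ± 0.549 CPM (SD, n = 2) and 22.5 ± 2.29 CPM (SD, n = 2). Their differences of 0.71 ± 0.37 and 0.72 ± 0.45 did not pass (edgeR adjusted p = 0.498 and 0.574). Hoxb4 went the other way, from 19.8 ± 4.23 CPM (SD, n = 2) to 10.3 ± 1.63 CPM (SD, n = 2), a log2 difference of -0.94 ± 0.43 (edgeR adjusted p = 0.446). A fit of the macula densa libraries alone, with 2 against 2, called 1 of 26 members tested, Hoxd8, and 0.927% of all genes.

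In control cells 0 of 27 members were called in the diet comparison, where 0.00705% of all genes, or 1 gene, was (edgeR). At an unadjusted p under 0.05 there was 1 member, Hoxb3, and 6.45% of all genes, and the DESeq2 Wald test called 0 members and 0.522% of all genes. Hoxb3 was 6.79 ± 1.24 CPM (SD, n = 4) on control diet and 9.55 ± 0.461 CPM (SD, n = 4) on the low salt regimen, and it was the 1 member whose low salt libraries were all above the others, which 2.1% of all genes were; 0 members were all below, and 2.09% of all genes were. Its log2 difference was 0.49 ± 0.20 (edgeR adjusted p = 0.729). Hoxd8 was at -0.18 ± 0.40 (95% interval -0.96 to 0.60), and at 0.41 ± 0.28 without control-cell library 4 on control diet.

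The difference of the 2 diet effects was tested directly, and 0 of 27 members were called, as were 0.0% of all genes (edgeR). At an unadjusted p under 0.05 there was 1 member, Hoxb4, and 7.03% of all genes, and the DESeq2 Wald test called 0 members and 0.0917% of all genes. Hoxb4 was at -1.22 ± 0.53 (edgeR adjusted p = 0.692) and Hoxd8 at 1.18 ± 0.69 (95% interval -0.17 to 2.52, edgeR adjusted p = 0.769).

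Among the cofactors with which Hox proteins bind DNA, 7 of 9 were tested, and 1 was higher and 3 were lower in macula densa cells in the average of both diets, with a median log2 difference of -1.11. Over all genes tested, 7.48% were higher and 13.9% lower, 21.3% in all, and the counts of the lists that follow stand beside the same shares. Pbx3 held 18.6 and 14.9 CPM on control diet and 22.6 and 27.1 CPM on the low salt regimen in macula densa cells. In control cells it held 6.01, 5.07, 4.76 and 4.44 CPM and 3.54, 8.08, 8.40 and 5.09 CPM, so the populations did not overlap, and the log2 difference was 1.87 ± 0.21 (edgeR adjusted p = 0.000162). Meis2 and Pknox2 were among the lower ones (edgeR adjusted p = 0.00566 and 0.00316). Meis2 held 146 and 18 counts on control diet and 4 and 0 on the low salt regimen in macula densa cells, and Pknox2 held 0 to 2 counts there and 6 to 30 in control cells. Among control cells on control diet, Meis2 was lowest in library 4, at 5.68 CPM, the library with the least podocyte and endothelial RNA, and the part of those cells was not tested.

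Trithorax and Polycomb genes, which keep Hox clusters active or silent in the embryo, were called below the share of all genes, 21.3%. Of 10 Trithorax and MLL complex genes tested, 1 was higher (Psip1, which tethers MLL to chromatin, 0.47 ± 0.14) and 1 lower (Kmt2d, a histone H3 methyltransferase, -0.44 ± 0.14), with a median of -0.14. Of 16 Polycomb genes tested, 1 was higher (Ezh2, the H3K27 methyltransferase, 0.89 ± 0.26) and 0 were lower, with a median of 0.00. The edgeR adjusted p values were 0.038, 0.0483 and 0.0269. Of 9 upstream regulators tested, 1 was higher and 3 were lower, with a median of -0.46. Gdf11, a ligand that promotes posterior Hox expression in the embryo, was 22.1 ± 3.79 CPM (SD, n = 2) in macula densa cells on control diet and 6.40 ± 0.924 CPM (SD, n = 2) on the low salt regimen, against 3.43 ± 1.56 and 4.59 ± 1.95 CPM (SD, n = 4) in control cells. Its log2 difference was 1.59 ± 0.29 (edgeR adjusted p = 0.00288). The retinoic acid receptors Rara and Rarg were lower, at -0.98 ± 0.21 and -1.80 ± 0.40 (edgeR adjusted p = 0.0068 and 0.00781). For Rarg, control-cell library 4 on control diet, at 5.68 CPM, was near the highest macula densa value, 5.33 CPM. The retinoic acid-degrading enzyme Cyp26b1 was lower too (edgeR adjusted p = 0.0201), with 113 and 2 counts and 0 and 0 counts in macula densa libraries of the 2 diets. Its populations overlapped, since macula densa library 1 on control diet held 11.6 CPM and control cells held 54.1, 94.3, 4.86 and 5.27 CPM on control diet and 39.0, 8.81, 21.2 and 53.2 CPM on the low salt regimen.

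Of 7 kidney development factors tested, 0 were higher and 2 were lower (21.3% of all genes were called), with a median of -0.28. These were Pax8 (-1.27 ± 0.23, edgeR adjusted p = 0.0028) and Wt1, which is also on the podocyte list (edgeR adjusted p = 0.0128). Wt1 was 0.723 CPM in control-cell library 4 on control diet, inside the macula densa range of 0 to 3.59 CPM. Of 8 genes that flank the Hox clusters, 1 was higher (Hibadh, a mitochondrial dehydrogenase beside cluster A, 1.16 ± 0.30) and 1 was lower (Snx11, a sorting nexin beside cluster B, -1.08 ± 0.28), with a median of 0.03 and edgeR adjusted p of 0.017 and 0.0175. Hibadh was 13.0 CPM in control-cell library 4 on control diet, near its lowest macula densa value of 13.6 CPM. The part of the cell mixture in these list genes was not tested. Of 15 other noncoding RNAs of the clusters, 5 were in the table and 0 were tested; Hotairm1 had 48 counts over all 12 libraries and Hotair 14. In the diet comparisons and their difference, 0 genes of these 7 lists were called (edgeR). The long noncoding gene Gm53 in cluster B was at 0.37 ± 0.21 (edgeR adjusted p = 0.243).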

How the data were processed

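RNA of sorted mouse kidney cells was sequenced with a stranded total-RNA kit, and all libraries were prepared together, per the labels' protocols. The deposited table holds expected counts per gene (estimated counts), made and deposited by the authors, of which 16.1% were not whole and which were rounded here. The submitters' processing notes name STAR 2.61, Partek and mm10. The annotation, counting model and strand setting are not given in the sources used here. The symbol, start and end of all 35 Hox rows matched GENCODE M21, which gave exon lengths.

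Members and lists were chosen with earlier results of these data known. All 12 libraries were fitted with one coefficient per group in edgeR 4.0.16 (R 4.3.3), with TMM scaling, filterByExpr (count minimum 10, total minimum 15), the quasi-likelihood test and Benjamini-Hochberg adjustment over 14180 genes at 0.05. Fold changes carry standard errors and 95% intervals. CPM used TMM-scaled totals (prior count of 2 on the log2 scale). Samples were grouped by their labels. Members were given with the value in every library where they reached a mean of 5 CPM in a group or were called, and list genes were named where called, apart from items not reported here. DESeq2 1.42.0, other scalings, filters and thresholds, replicate blocks and leaving out each library were the alternatives. Rows with shared exons were summed after the data were seen. The fit was tested on simulated data with 200 genes above a count minimum changed 4-fold. It recovered 87.5% of them between populations (average of both diets). For the diet comparison it recovered 84.5% in control cells and 38.5% in macula densa cells. Intervals cover the spread of these libraries only.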

Additional observations from a re-analysis of the deposited data

Results flagged for a closer look

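In each set of 4 control-cell libraries, the gap of the highest or lowest log2 CPM value to its neighbour was set against Dixon's 95% critical value for each tested Hox gene. Of 58 such sets, 4 passed it, and chance would give about 2.9. Hoxb4 was at 4.57 in library 1 on the low salt regimen, where the other 3 lay between 3.36 and 3.56, with 306 counts against 41 to 109. Hoxc4 was at 1.27 in library 1 on control diet, with the others between -0.42 and -0.16 and 20 counts against 5 to 7. Hoxd3 was at 0.57 in library 3 on the low salt regimen, with the others between 1.84 and 1.87 and 6 counts against 14 to 44. Hoxa4 was at -0.97 in library 2 on control diet, with the others between -0.42 and -0.32, a gap that rests on 3 counts against 5 to 6. Macula densa groups, with 2 libraries each, could not be examined in this way.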

How the results depend on the processing

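In the average of both diets, Hoxc4, Hoxc9, Hoxc10, Hoxd4, Hoxd9, Hoxd10 and Hoxd11 stayed higher and past the threshold under every alternative that tested them (Hoxc4, Hoxc9 and Hoxd11 did not reach a mean of 5 CPM over all libraries). The count of 18 called members (21.3% of all genes called) was 11 when genes needed a mean of 5 CPM (17 members tested, 28.0% of genes), 9 at a threshold of 0.01 (9.17%), and 12 to 19 without 1 library. On control diet the count of 3 (6.61%) was 5 with library totals alone (6.14%), 1 with the 5 CPM mean (9.09%), 6 in the DESeq2 Wald test (14.1%), 1 at 0.01 (1.70%), and 1 to 9 without 1 library. On the low salt regimen the count of 7 (7.27%) was 15 with library totals alone (7.95%), 11 in the DESeq2 Wald test (13.6%), 0 at 0.01 (1.77%), and 0 to 10 without 1 library. The macula densa diet count of 0 was 1 (Hoxd8, 0.927% of genes) when only those libraries were fitted. The other diet counts were 0 under each alternative. Fits of only the groups compared do not apply to the average or to the difference of diet effects. Library totals alone moved the median log2 difference of all genes in the average from -0.06 to 0.14. The causes were not tested.

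Replicate numbers of the titles, or the numbers in the descriptions, were also used as a replicate block. Each macula densa library shares its description number with 1 control-cell library of its diet, and the labels do not say what that number marks. Deviations of same-numbered libraries from their group means correlated at -0.38 to 0.28 for titles and at -0.04 to 0.23 for descriptions. In a group of 2 libraries these deviations mirror each other, so the correlations cannot decide whether macula densa and control-cell libraries were paired. The replicate block gave 2, 2 and 11 called members (control diet, low salt regimen, average) with title numbers, where 2.67%, 2.79% and 13.5% of all genes were called. With description numbers it gave 9, 8 and 16, where 16.2%, 15.7% and 26.0% of all genes were. On control diet these 9 held the 3 called without the block, and Hoxd8, Hoxd9, Hoxd10 and Hoxa10 were among those gained. On the low salt regimen 4 of the 7 stayed called, Hoxb2, Hoxc4 and Hoxc5 were lost, and Hoxd10 was among those gained. Called members were 0 in the diet comparisons to which a block could be fitted.

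Signs turned only in differences that were not called. Hoxa6 in the average was 0.12 with library totals alone and -3.18 to 0.44 without 1 library. Hoxb4 in the average was -0.026 with the title block. Hoxd3 in the average was 0.20 with the description block and -1.13 to 0.14 without 1 library, and Hoxd3os1 was -0.44 to 0.86. Hoxb9 on control diet was -0.069 to 0.25 without 1 library. The diet effect on Hoxd8 in control cells was 0.10 with the title block and -0.45 to 0.41 without 1 library.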

Other observations

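Gdf11, one of the upstream regulators, stood in the macula densa groups at 22.1 ± 3.79 CPM (SD, n = 2) on control diet and 6.40 ± 0.924 CPM (SD, n = 2) on the low salt regimen, while no gene passed the edgeR test of that diet comparison (1594 genes at an unadjusted p under 0.05). Limits of these data are the 2 libraries in each macula densa group, the mixture of cells in the control sort, and low Hox counts beside a dominant ribosomal row. Shared exons between neighbouring Hox genes leave single values of Hoxd3, Hoxd4, Hoxc5 and the antisense genes uncertain.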
